A study of Mus musculus with 20 samples.

Results

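Capture Hi-C (cHi-C) of mouse limb buds was compared between embryos homozygous for *Inv1*, an engineered inversion between *Lbx1* and *Fgf8*, and wild-type embryos. Every pair of 5 kb bins of the captured interval, from 44440001 to 46400000 on chromosome 19 (mm9), was a member, and 75855 of the 77028 bin pairs of the interval had values in both maps. Of these pairs, 66430 lay outside the inversion, 9100 had 1 bin inside it and 325 lay within it. The inverted segment ran from 45611051 to 45734101, a length of 123051 bp, which covered 25 bins, 23 of them whole and 2 of them holding a breakpoint.

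cHi-C ligates DNA ends that lie close together in the nucleus and enriches 1 locus with probes, so that the read pairs between a pair of bins count how often they were in contact. The wild-type map merged 4 libraries, 3 biological replicates and 1 technical replicate, labelled strain c57bl6.J. The homozygous *Inv1* map also merged 3 biological replicates and 1 technical replicate, labelled G4 ESC, a 129sv/C57Bl6 hybrid embryonic stem cell line edited with CRISPR/Cas9. Heterozygous *Inv1*, also G4 ESC, had 3 biological replicates. Forelimb and hindlimb buds at E11.5 were pooled and left whole, and mutant embryos came from aggregation of the edited cells or from mouse lines founded by such animals and crossed to C57BL/6. Strain and genotype therefore cannot be told apart. Contact in the cells of the ridge at the tip of the bud cannot be told apart from that in the rest of the bud. The maps hold no expression values against which the tissue label could be checked.

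The wild-type map held 7867931 read pairs and the homozygous *Inv1* map 11615891, with a median of 21 and 41 read pairs per bin pair and of 11 and 21 at 500 kb or more. Since each genotype was 1 merged map, the spread between limb buds could not be measured and no test was possible. Intervals given below are 95% counting intervals, which cover counting error only.

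Topologically associating domains (TADs) are stretches of chromosome whose parts touch each other more often than they touch the neighbouring stretches, and the boundaries between them are often bound by CTCF. Enhancers mostly act on promoters of their own domain. *Fgf8* encodes a growth factor that the apical ectodermal ridge (AER), the thickened epithelium at the limb bud tip, makes to keep the bud growing. Most of the AER enhancers that the paper marks lie in introns of the neighbouring gene *Fbxw4*. The paper places another AER enhancer close to *Fgf8* itself. *Lbx1*, in the next domain, encodes a homeobox transcription factor of migrating muscle precursors.

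The breakpoint sequences show what was joined to what. Both lie on the plus strand of mm9, at chr19:45611031-45611070 and chr19:45734082-45734121, and the capitals mark the NGG motif that Cas9 needs beside its target. Each cut lay 3 bases before this motif. The centromeric breakpoint fell in no annotated gene, 3219 bp beyond the 3′ end of *Btrc*. The telomeric breakpoint fell in intron 1 of *Fbxw4* (ENSMUSG00000040913, 45652744 to 45734802, minus strand), 701 bp inside its start site.
Centromeric breakpoint: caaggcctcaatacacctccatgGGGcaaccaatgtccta
Telomeric breakpoint: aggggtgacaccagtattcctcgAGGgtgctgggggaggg
The junctions that the coordinates predict are given next, with the ends of the inverted segment in capitals. They were built from the mm9 reference and the stated coordinates and were not read from the embryos.
Centromeric junction: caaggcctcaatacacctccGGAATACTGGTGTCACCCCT
Telomeric junction: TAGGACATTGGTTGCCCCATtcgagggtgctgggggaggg
In the predicted order the 5′ part of *Fbxw4*, without its promoter and first exon, follows the *Btrc* side, and the *Poll* side of the segment faces *Fgf8*.

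The order of the segment was also searched for in the contacts. The scaling and the wild-type decay used for this came from pairs outside the stated inversion, so its coordinates entered the search. Contact falls with distance along the chromosome, so a map listed in the wrong order departs from that decay. When the bins between any pair of bin edges were reversed, giving 76636 possible orders, the order closest to the wild-type decay in *Inv1* reversed the bins from 45610000 to 45735000. These are the edges of the bins that hold the breakpoints. The mean squared log2 deviation fell from 0.444 in the reference order to 0.427, which is 96.1% of it, and 151 orders were below the reference order. In the wild-type map the same reversal raised the deviation to 104% of the reference value.

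Among the 9100 pairs with 1 bin in the inversion, distance in the reference order accounted for 74.9% of the variance of log2 contact in *Inv1*, and distance in the inverted order for 81.4%. The wild-type map went the other way, from 77.2% to 69.1%. The gain lay mainly on the *Fgf8* side. With the telomeric flank the share in *Inv1* went from 42.2% to 67.1%, while with the centromeric flank it went from 82.1% to 84.3%. Bin pairs of 1 map are not replicates, and these shares are descriptions.

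**Figure D1:**
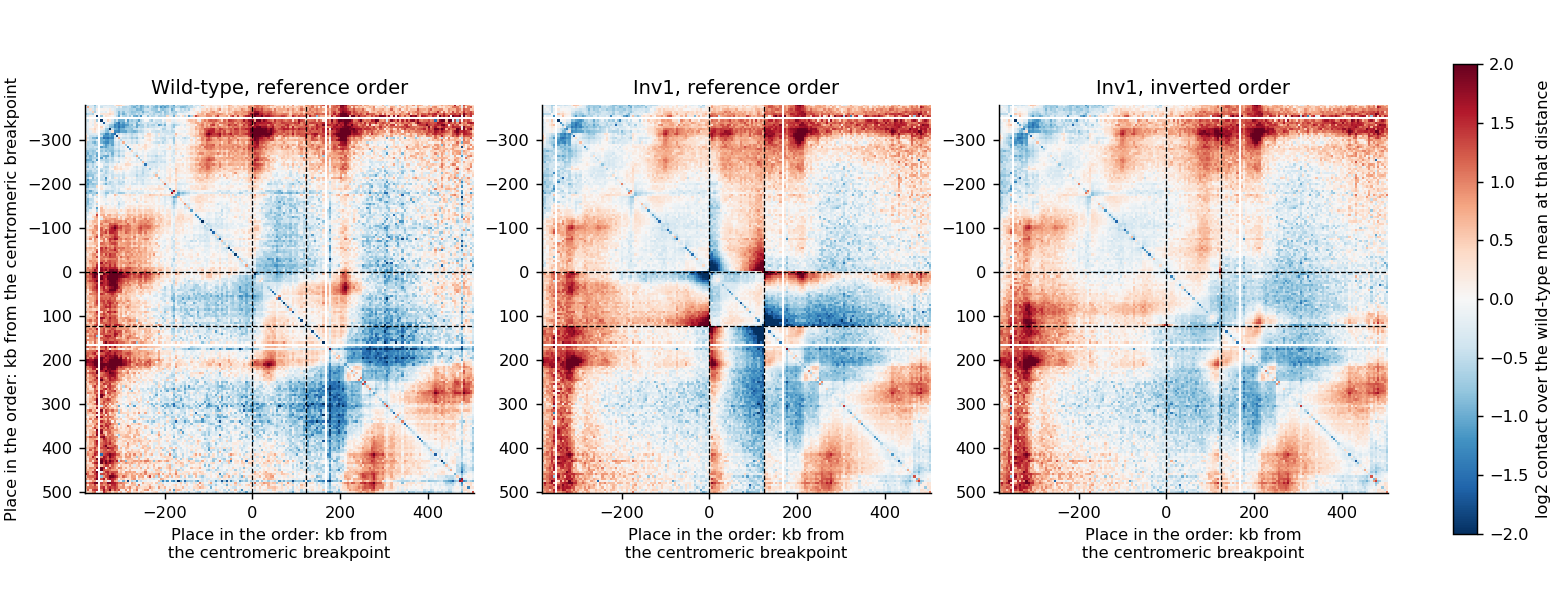
Log2 contact over the wild-type mean at the same distance, by position of both bins in kb from the centromeric breakpoint, for the wild-type in reference order, *Inv1* in reference order and *Inv1* in inverted order, with breakpoints as dashed lines. The bow-tie of high contact between the breakpoints in the reference order of *Inv1* is replaced by a continuous diagonal in the inverted order, in which distance accounts for 81.4% of the variance of inside to outside pairs against 74.9%.

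In blocks of 25 kb that covered the map, pairs past 1.5-fold lay mostly where 1 block was in the inversion, under scaling per distance. Values are contacts after both maps were scaled to the same sum at each distance and then to a total of 1000000, and ratios are *Inv1* over wild-type. Of 2991 block pairs with at least 100 read pairs in each map, 46 were at least 1.5-fold higher in *Inv1*, which is 1.54% of all, and 33 were at least 1.5-fold lower, which is 1.1%. Scaled to the same total only, without the step per distance, 240 were higher and 27 lower, with the median ratio of all block pairs shifted by 0.29 on the log2 scale. Among the 360 pairs of a block inside and a block outside the inversion, 45 were higher and 29 lower. Among the 2616 pairs outside it, none was higher and 4 were lower, and 67.0% lay within 10% of equality. The sums made equal at each distance were those of pairs outside the inversion, so that these centre on 1 was built in. With the same total only, the *Lbx1* TAD with the flank that holds *Fgf8* had a ratio of 1.29. The interval centromeric of the *Lbx1* TAD had 1.33 with that flank.

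The direction followed the new distances in most of the block pairs past the fold. The inversion brought 144 inside to outside block pairs closer together, and 35 of these were higher and 2 lower. It moved 144 apart, of which 1 was higher and 22 lower. Another 72 pairs kept their distance, of which 9 were higher and 5 lower. Most pairs of each group did not pass the fold. Over all pairs of a group the median ratio was below 1, at 0.965 for those brought closer, 0.827 for those moved apart and 0.904 at the same distance.

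The interval with the AER enhancers gained contact with the *Lbx1* TAD and lost contact with *Fgf8*. It was taken as 10 bins (45655001 to 45705000) at the 3′ end of *Fbxw4*, where the study draws the enhancers of the *Fbxw4* introns. This interval lies near the middle of the inverted segment and does not hold the AER enhancer close to *Fgf8*. Its mean contact with the *Lbx1* TAD (63 bins, 45295001 to 45610000) was 11.9 in wild-type, from 52830 read pairs, and 21.4 in *Inv1*, from 161296 read pairs. The ratio was 1.79 (1.77 to 1.81). The new distances alone, put through the wild-type decay, would give 1.1. The enhancer interval was thus higher with the *Lbx1* TAD by 1.62-fold (1.60 to 1.64) beyond the change in distance.

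With the telomeric flank of the inversion that holds *Fgf8* (45735001 to 45825000), the enhancer interval had a mean contact of 37.7 in wild-type and 16.5 in *Inv1*. The ratio was 0.437 (0.430 to 0.444), where distance alone would give 0.872. As a share of all contact of the enhancer interval outside the inversion, the *Lbx1* TAD went from 28.1% to 48.2% and the *Fgf8* flank from 24.3% to 9.97%. The *Lbx1* side held the larger share in both maps, and by more in *Inv1*. These shares compare regions of unlike length, 315 kb for the *Lbx1* TAD and 90 kb for the *Fgf8* flank. Per bin pair, wild-type contact was higher with the *Fgf8* flank, at 37.7 against 11.9 with the *Lbx1* TAD.

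The gain was graded along the *Lbx1* TAD. In steps of 50 kb from the centromeric breakpoint, the ratios were 2.44, 2.06, 1.76, 1.68, 1.5 and 1.23 out to 300 kb. In the next step, from 300 to 350 kb, which reaches past the centromeric boundary, the ratio was 0.905 (0.875 to 0.935), and it was 0.888 and 0.836 in the steps after it. The ratio from distance alone was 1.18 next to the breakpoint and 1.06 or less in the steps beyond 200 kb, so the fall from 2.44 to 1.23 was steeper than that of distance. On the telomeric side the ratios were 0.438 and 0.443 in the first steps of 50 kb, the second of which reaches past the telomeric boundary. They were nearer to 1 in the steps after these, at 0.668 and 0.858.

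By single bins, 62 of the 379 bins measured against the enhancer interval were at least 1.2-fold higher in *Inv1* (16.4%) and 111 at least 1.2-fold lower (29.3%). Of the 63 bins of the *Lbx1* TAD 57 were higher and none lower, with ratios from 0.940 to 2.78 and a median of 1.75. All 17 measured bins of the *Fgf8* flank were lower, from 0.404 to 0.532. Beyond the domains the enhancer interval had a ratio of 0.880 (0.866 to 0.894) with the 169 bins centromeric of the *Lbx1* TAD, which became 1.12 when the maps were scaled to the same total only. With the bins telomeric of the *Fgf8* TAD it was 0.799, or 0.927 with the same total only.

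**Figure D2:**
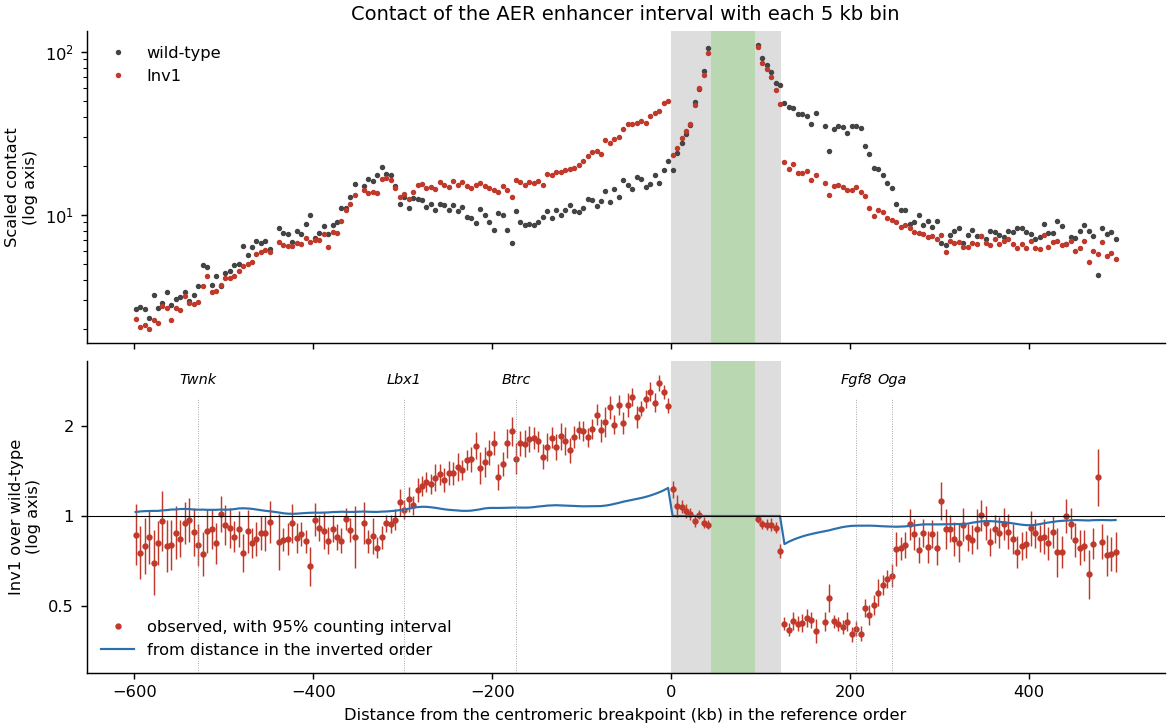
Scaled contact of the AER enhancer interval (green band) with each 5 kb bin on a log axis (top, wild-type grey, *Inv1* red) and the ratio of *Inv1* over wild-type with its 95% counting interval (bottom), by position in kb from the centromeric breakpoint, with the inversion as a grey band and the ratio that distance alone gives as a blue line. The ratio climbs from the centromeric boundary to the breakpoint, up to 2.78, and lies between 0.404 and 0.532 in the flank that holds *Fgf8*.

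Among the genes of the *Lbx1* TAD, *Btrc* gained most of the contact. *Btrc* (ENSMUSG00000025217, 45438224 to 45607831) encodes the F-box protein that hands substrates to an SCF ubiquitin ligase, and it fills the side of the domain nearer the breakpoint. The contact of its body with the enhancer interval went from 12.5 in wild-type to 26.3 in *Inv1*, a ratio of 2.10 (2.07 to 2.13) against 1.12 from distance. At the *Btrc* promoter the contact went from 10.5 (407 read pairs) to 16.3 (1219 read pairs), a ratio of 1.55 (1.38 to 1.75) against 1.07 from distance. The predicted gene *Gm6807*, which lies within *Btrc*, had a ratio of 2.18.

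The *Lbx1* promoter, in the fourth bin inside the centromeric boundary, differed little in its contact with the enhancers. *Lbx1* (ENSMUSG00000025216, 45307178 to 45310301, minus strand) had a contact of 12.8 in wild-type, from 1145 read pairs, and 13.4 in *Inv1*, from 2574 read pairs. The ratio was 1.05 (0.974 to 1.13), equal to the 1.05 that distance gives. It was 1.24 when the maps were scaled to the same total only and 1.29 from read pairs without balancing, so the size of a gain at *Lbx1* rests on the scaling. The *Btrc* promoter had 1.70 and 1.83 under the same alternatives. The inversion as a whole held 9.54% of the contact of the *Lbx1* promoter in wild-type and 8.79% in *Inv1*, and 7.14% and 8.63% of that of the *Btrc* promoter.

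The *Fgf8* promoter lost contact with the enhancer interval. *Fgf8* (ENSMUSG00000025219, 45811288 to 45817405, minus strand) had a contact of 35.1 with the enhancer interval in wild-type, from 2813 read pairs, and 14.8 in *Inv1*, from 2273 read pairs, although the *Inv1* map was the deeper one. The ratio was 0.421 (0.397 to 0.446) against 0.928 from distance. In *Inv1* the enhancer interval therefore touched the *Fgf8* promoter about as often as the *Lbx1* and *Btrc* promoters, at 14.8, 13.4 and 16.3, where in wild-type *Fgf8* stood above both. The mean distances in the inverted order differed, at 152.5, 352.5 and 227.5 kb. Over the mean of pairs outside the inversion at the same distance, the values were 0.789, 1.68 and 1.27 in *Inv1*. In wild-type they were 1.74, 1.69 and 0.875, so that there *Fgf8* and *Lbx1* were close. The share of the contact of the *Fgf8* promoter that went to the inversion was 21.1% in wild-type and 12.7% in *Inv1*. *Npm3*, a histone chaperone of the nucleoplasmin family that starts just beyond *Fgf8*, had a ratio of 0.405 (0.383 to 0.428).

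The genes that travel with the enhancers kept their contacts with them. *Poll*, which encodes a DNA polymerase of base excision repair and end joining, and *Dpcd* start in the same bin, whose contact with the enhancer interval was 49.2 in wild-type and 47.4 in *Inv1*. The ratio was 0.964 (0.922 to 1.01). *Fbxw4*, an F-box and WD repeat gene, was cut by the inversion, and its promoter stayed on the *Fgf8* side. The bin with the *Fbxw4* start site is a breakpoint bin that holds 899 bp of the flank and otherwise inverted DNA. Its ratio with the enhancers, 0.766 (0.724 to 0.809), lay on the other side of 1 without balancing. It mixes both and has no direction for the promoter.

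Over the interval, 34 protein-coding genes had start sites in 30 bins, and 2 of these genes, *Gm6807* and *Btrc*, were at least 1.2-fold higher with the enhancers in *Inv1*. Without *Fbxw4*, whose bin has no direction, 12 of the other 33 were at least 1.2-fold lower and 19 neither, with a median ratio of 0.853. Over all 379 bins measured against the enhancer interval, 29.3% were lower and 16.4% higher at the same fold. The promoter counts are therefore not read as a result about promoters. These counts depend on the scaling. With the same total only, 10 of the 33 were higher and 4 lower, at a median of 1.09, and without balancing 5 were higher and 10 lower. *Gm6807* and *Btrc* were higher, and *Fgf8*, *Npm3*, *Oga* and *Hps6* lower, under all 3 settings. The next highest after *Btrc* were *Nfkb2*, a subunit of NF-κB, at 1.1 (0.903 to 1.34), *Ndufb8*, a subunit of respiratory complex I, at 1.08 (0.833 to 1.39) and *Slf2*, which acts with the SMC5/6 complex, at 1.06 (0.880 to 1.28). None of these 3 passed the fold and all 3 intervals hold 1. After *Npm3* and *Fgf8* the lowest were *Oga*, the enzyme that removes O-GlcNAc from proteins, at 0.632 (0.578 to 0.691), *Hps6*, a subunit of the BLOC-2 complex, at 0.640, and *Ldb1*, a cofactor of LIM-domain proteins, and *Pprc1*, which share a bin, at 0.701. By the telomeric boundary taken here, *Oga* starts in the domain next to that of *Fgf8*. The flanking *Twnk*, the mitochondrial DNA helicase, had 0.802 (0.683 to 0.942), which became 1.05 when the maps were scaled to the same total only.

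**Figure D3:**
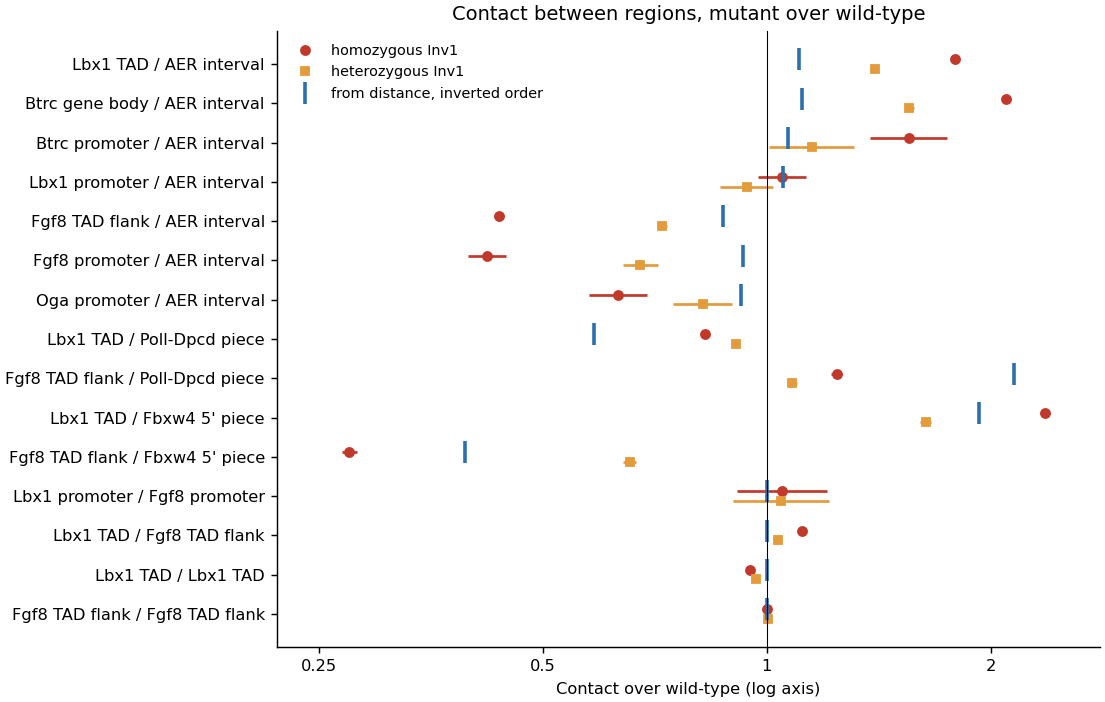
Ratio of contact over wild-type on a log axis for 15 pairs of regions, homozygous *Inv1* in red and heterozygous *Inv1* in orange with 95% counting intervals, and the ratio that distance alone gives as a blue bar. The homozygous ratios with the AER enhancer interval run from 0.421 at the *Fgf8* promoter to 2.10 at the *Btrc* body, and the heterozygous ratios of 0.676 and 1.55 lie nearer to 1.

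The pieces on either side of the enhancers in the inverted segment moved differently. The piece with *Poll* and *Dpcd* (45615001 to 45655000) was next to the *Lbx1* TAD in wild-type and is next to *Fgf8* in *Inv1*. Its contact with the *Lbx1* TAD went from 22.8 to 18.9, a ratio of 0.827 (0.819 to 0.835), where distance alone would give 0.585. Its contact with the *Fgf8* flank went from 28.7 to 35.6, a ratio of 1.24 (1.22 to 1.26), where distance alone would give 2.15. The piece therefore changed partners less than its new position would give.

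The promoter bin of *Poll* and *Dpcd* showed this most clearly. Its ratio was 0.992 with the *Lbx1* TAD and 1.03 with the *Fgf8* flank, against 0.627 and 1.91 from distance. The *Lbx1* TAD held 27.6% of its contact in both maps. With the *Fgf8* promoter its ratio was 0.825 (0.714 to 0.954), where distance alone would give 1.45.

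The piece at the 5′ end of *Fbxw4* (45705001 to 45730000) moved furthest from *Fgf8*. Its contact with the *Fgf8* flank went from 51.5 to 14.1, a ratio of 0.275 (0.269 to 0.281) against 0.393 from distance. Its contact with the *Lbx1* TAD went from 10.6 to 25.2, a ratio of 2.36 (2.33 to 2.4) against 1.93 from distance. Contacts within the segment changed little, with ratios from 0.943 to 1.04 between its 3 pieces and within the *Poll* and *Dpcd* piece and the enhancer interval. Under the same total only these ranged from 0.874 to 1.03, and from read pairs without balancing from 0.922 to 1.13.

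Across the 23 whole bins of the inversion, each bin's contact with the 100 kb next to either breakpoint shows where its preference lay. In wild-type 4 bins, the first ones after the centromeric breakpoint, had more contact with the centromeric flank than with the telomeric one. In *Inv1* 18 bins did. The log2 ratio of centromeric over telomeric contact in the 10 bins of the enhancer interval lay between -1.54 and -1.13 in wild-type and between 0.80 and 1.46 in *Inv1*. This was not particular to the enhancers. The bins at the 5′ end of *Fbxw4* lay further apart, between -2.25 and -1.66 in wild-type and between 1.46 and 2.02 in *Inv1*. Neighbouring bins of 1 map are not replicates. The bin of the *Poll* and *Dpcd* promoters was where both maps crossed, at -0.21 and -0.19.

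**Figure D4:**
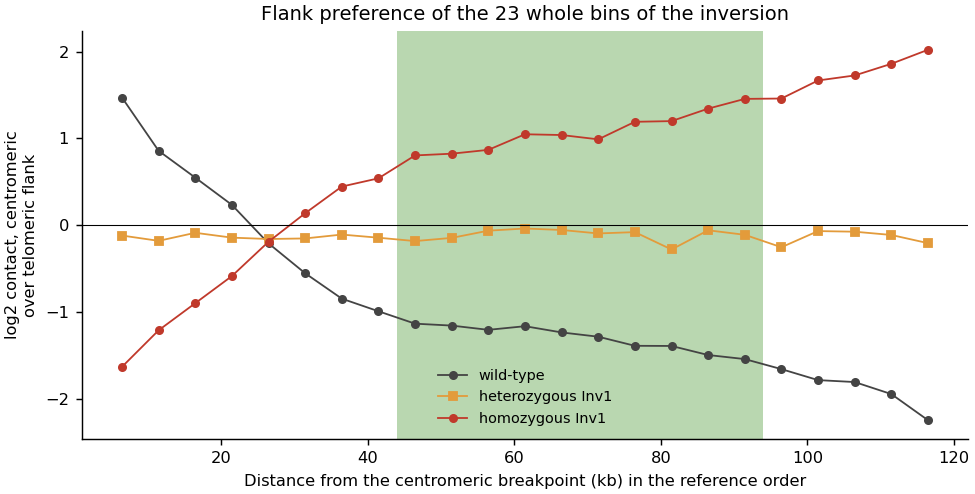
Log2 of contact with the 100 kb centromeric over the 100 kb telomeric of the inversion for each of its 23 whole bins, by position in kb from the centromeric breakpoint, for wild-type, heterozygous and homozygous *Inv1*. The wild-type line falls from 1.47 to -2.25 and the homozygous line rises from -1.63 to 2.02, while the heterozygous line stays near -0.11.

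At the junctions the new neighbours were in contact more often. Between the 25 kb before the centromeric breakpoint and the far 25 kb of the segment, the contact went from 14.9 (2713 read pairs) to 79.1 (20938 read pairs), a ratio of 5.32 (5.09 to 5.55), where distance would give 3.63. At the telomeric junction, the contact of the *Poll* end of the segment with the flank next to *Fbxw4* went from 22.1 (3773 read pairs) to 56.7 (16094 read pairs), a ratio of 2.57 (2.47 to 2.67) against the same 3.63. The gain at the centromeric junction was thus above, and that at the telomeric junction below, what distance gives.

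The wild-type neighbours parted accordingly. The ratio across the centromeric breakpoint was 0.398 (0.385 to 0.412) and across the telomeric breakpoint 0.208 (0.201 to 0.216), where distance would give 0.275 for both. The bins with the breakpoints, which hold the parts that the junctions join, had 69 read pairs with each other in wild-type and 8718 in *Inv1*, a ratio of 43.6 (34.4 to 55.2). Apart from these bins, the 2 ends of the segment had 0.986 (0.933 to 1.04) with each other.

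The boundary between the *Lbx1* and *Fgf8* domains moved with the segment. Insulation is the log2 of the mean contact across a bin edge, over 100 kb on either side, relative to all edges of a map, and low values mark boundaries. In wild-type the edge at 45620000, 9 kb inside the centromeric breakpoint, was a minimum at -0.57. In *Inv1*, in inverted order, this edge lies 114 kb from the centromeric breakpoint, on the *Fgf8* side of the segment, and its insulation there was -0.42. The lowest edge of the inverted segment was the neighbouring one, at -0.43.

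At the wild-type place of the boundary, insulation in inverted order was 0.27. The mirrored edge was at 0.42 in wild-type. The centromeric junction stood at 0.24 in *Inv1*, where the same edge was at -0.40 in wild-type, and the telomeric junction at -0.33, where wild-type had 0.39. The centromeric boundary at 45295000 was -0.61 in wild-type and -0.58 in *Inv1*. The telomeric boundary at 45825000, just beyond *Fgf8*, was -0.92 in wild-type and -0.61 in *Inv1* in inverted order, although it was not moved. Its window of 100 kb reaches into the segment, and in reference order it was -0.69 in *Inv1*. Over the 289 edges at least 100 kb from the segment, the difference of *Inv1* minus wild-type ran from -0.09 to 0.25 with a median size of 0.05.

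**Figure D5:**
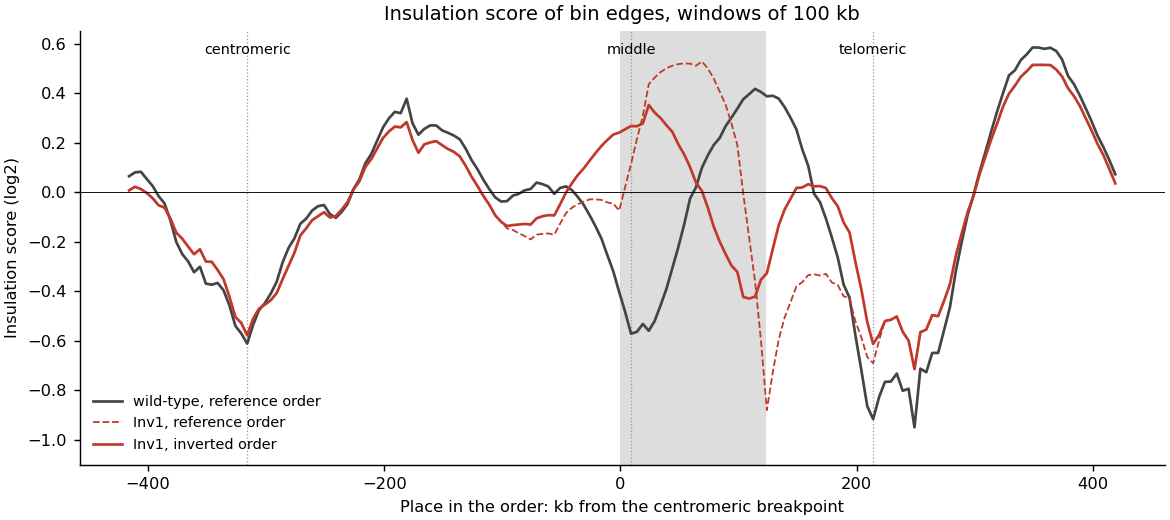
Insulation (log2, windows of 100 kb) by position in kb from the centromeric breakpoint, for wild-type, for *Inv1* in reference order (dashed) and for *Inv1* in inverted order. The minimum of -0.57 inside the centromeric breakpoint in wild-type appears at the other end of the segment in the inverted order of *Inv1*, at -0.43.

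Of the 3 corner contacts between boundaries, those of the inverted boundary were weaker in *Inv1* and the outer one differed least. Loop values are the mean contact of 3 by 3 bins over the mean of pairs outside the inversion at the same distance. The anchor bins were those of the highest wild-type pair near the boundaries, a choice that favours lower values in *Inv1* than in wild-type at every corner. For the inverted boundary the anchor bin started at 45620001 in the pair with the centromeric boundary and at 45640001 in the pair with the telomeric one. Between the inverted boundary and the centromeric boundary, which *Inv1* moved from 325 to 425 kb apart, the value was 5.75 (5.56 to 5.95) in wild-type and 3.85 (3.71 to 4.01) in *Inv1* in inverted order. Between the inverted boundary and the telomeric one, moved from 180 to 120 kb, it was 2.92 (2.82 to 3.02) in wild-type and 1.16 (1.12 to 1.2) in *Inv1*, so that little contact above that of the distance was left. Between the outer boundaries, 525 kb apart in both, it was 6.37 (6.14 to 6.61) in wild-type and 5.85 (5.69 to 6.01) in *Inv1*. Without balancing the values were larger in both maps, at 7.00 and 4.48, 3.89 and 1.67, and 9.85 and 9.12 for wild-type and *Inv1* in the same order of pairs, and the outer value of *Inv1* over wild-type was 0.926 against 0.918 with balancing.

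CTCF sites that face each other often hold such corners, so the consensus core of CTCF, 12 bases long, was searched on both strands of mm9. It matched 21 times in the interval, 14 on the plus and 7 on the minus strand, in 20 bins, which are 5.1% of the interval. None of the matches lay in the inversion, and the anchor bins of the outer boundaries held 3 of them. These are shown because the outer corner was the one that differed least, with the core in capitals between 20 bases on either side, written along the strand of the match. The cores lie in no annotated gene, at chr19:45297051-45297062 (plus), chr19:45821024-45821035 (plus) and chr19:45822167-45822178 (minus).
Centromeric boundary, plus strand: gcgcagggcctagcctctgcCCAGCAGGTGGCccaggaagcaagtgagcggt
Telomeric boundary, plus strand: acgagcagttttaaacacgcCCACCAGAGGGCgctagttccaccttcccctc
Telomeric boundary, minus strand: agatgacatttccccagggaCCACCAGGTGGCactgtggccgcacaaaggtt
The plus match at the centromeric boundary and the minus match at the telomeric boundary face each other. A match is not a bound site, and the lack of one in the inverted boundary says only that these letters do not occur there. The paper does report CTCF sites at this inverted boundary, pointing away from each other. It also places a CTCF site in an AER enhancer that *Inv1* inverts. The search therefore misses sites that the paper reports. It cannot tell whether CTCF binding differs between the inverted boundary and the outer ones.

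Contacts between and within the flanks, whose distances the inversion leaves as they were, changed less under the scaling per distance, which centres them on 1. The *Lbx1* TAD with the *Fgf8* flank had a ratio of 1.12 (1.11 to 1.13), and the *Lbx1* promoter with the *Fgf8* promoter 1.05 (0.911 to 1.2), from 269 read pairs in wild-type and 728 in *Inv1*. The latter was 1.34 with the same total only and 1.42 from read pairs without balancing. The *Btrc* promoter with the *Fgf8* promoter had 1.25 (0.865 to 1.81), from 38 and 111 read pairs. Within the *Lbx1* TAD the ratio was 0.950, and within the *Fgf8* flank it was 1.00.

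The *Fgf8* flank had more contact across the telomeric boundary, as taken at 45825000, in *Inv1*. Its ratio with the interval beyond that boundary was 1.23 (1.22 to 1.24), and that of the *Oga* promoter with the *Fgf8* promoter was 1.38 (1.18 to 1.60). The 4 block pairs outside the inversion that were at least 1.5-fold lower all held the block next to the centromeric breakpoint (45585001 to 45610000), paired with blocks at or near the centromeric boundary (from 45235001 to 45335000), with ratios down to 0.557. The mean of the 25 kb before the breakpoint with the centromeric boundary went from 24.7 to 14.2, a ratio of 0.575 (0.550 to 0.601), at unchanged distance.

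Heterozygous *Inv1* was compared with the same wild-type map. Several of its ratios with the enhancer interval lay between 1 and the homozygous ones. They were 1.40 (1.38 to 1.42) for the *Lbx1* TAD, 1.55 for the *Btrc* body, 0.676 (0.640 to 0.714) for the *Fgf8* promoter and 0.723 for the *Fgf8* flank. Both comparisons share the wild-type map and are therefore not independent. Ratios nearer to equality did not all lie between. At the *Lbx1* promoter the heterozygous ratio was 0.939 (0.866 to 1.02). At the bin of the *Poll* and *Dpcd* promoters it was 0.902, further from 1 than the homozygous 0.964.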

How the data were processed

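Capture Hi-C libraries of E11.5 limb buds were analysed as 3 merged maps (wild-type, homozygous and heterozygous *Inv1*). The authors trimmed reads and used the HiCUP pipeline, with Bowtie2 2.4.2 as its mapper and mm9 as the genome, before duplicates were removed, replicates were merged and pairs were binned at 5 kb by Juicer tools 1.19.02. The deposited signal is contact balanced by the Knight-Ruiz (KR) method, which gives every bin about the same total and so can pull ratios towards 1. Reads were mapped to the reference order, and the inverted order was applied afterwards by reversing bins, which leaves the mirror off by 151 bp.

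Bin factors were solved from the signal, which gave whole read pairs for 100% of values within 0.01. The maps held 7867931, 11615891 and 7804215 read pairs, and these set the counting intervals (1.96 standard errors). Each *Inv1* map and wild-type were scaled to a common sum at each distance, without inversion bins, and then to a total of 1000000. Bin pairs without a listed value counted as 0 read pairs. Blocks needed 100 read pairs in each map and 80% of their bin pairs. Domain edges were wild-type insulation minima, and the telomeric one was taken between the *Fgf8* and *Oga* start sites. Just beyond the *Oga* start site, the wild-type edge at 45860000 was slightly lower, at -0.95, and would place *Oga* on the *Fgf8* side. The ends of the enhancer interval were read from a drawing and are uncertain. Gene starts came from GENCODE annotation of mm9, and a promoter was the bin with the start site.

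Named genes were *Lbx1*, *Btrc*, *Poll*, *Dpcd*, *Fbxw4*, *Fgf8*, *Slf2*, *Twnk*, *Oga* and the 5 highest and 5 lowest promoters against the enhancer interval. Members, lists and regions were chosen with earlier results of these data known. The scaling, the balancing, the region limits, the folds and the windows were varied. The authors' subtraction maps, which hold differences of scaled mutant and wild-type maps, and the other alleles were not used here. Python 3.11.15, numpy 2.4.6, numba 0.67.0 and matplotlib 3.10.9 were used, and the scripts were tested on simulated maps.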

Additional observations from a re-analysis of the deposited data

How the results depend on the processing

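In all, 48 values were recomputed. They covered 4 contacts with the enhancer interval, the *Lbx1* with *Fgf8* promoter pair and the loops. The others were of the block counts, the variance share, the edges and the insulation. Of the 48, 23 were labelled unchanged and 25 moved, which did not follow the size of the change alone. The rise from 46 to 65 higher block pairs without balancing was labelled unchanged, and 1.79 to 1.76 for the *Lbx1* TAD moved. The label of a reversed direction went to 0 values, but counts and edges have no direction. The variance share with the decay of the *Inv1* map was equal by construction. Directions nearer to equality were less stable. The counts of region pairs that crossed 1, the promoter counts under both alternatives and the wild-type loop values without balancing were added after seeing the data. Of the 46 region pairs whose counting interval leaves out 1, 10 crossed 1 with scaling to the same total only, among them the enhancer interval with *Twnk* and with the interval centromeric of the *Lbx1* TAD, and 5 without balancing, among them *Fbxw4* with the enhancer interval. With scaling to the same total only, the ratio with the enhancer interval was 1.97 for the *Lbx1* TAD, 1.24 for the *Lbx1* promoter and 0.453 for the *Fgf8* promoter, the *Lbx1* with *Fgf8* promoter ratio was 1.34, and 240 block pairs were higher. Without balancing, these ratios were 1.86, 1.29, 0.502 and 1.42, and the *Btrc* promoter had 1.83. The loop values were then 4.48 (inverted with centromeric boundary), 1.67 (inverted with telomeric) and 9.12 (outer boundaries). Distance in inverted order accounted for 68.3% of the variance without balancing. No such share is given for the reference order, so which order fits better without balancing is not shown. The *Lbx1* TAD had 1.76 with inversion bins kept in the scaling and 1.97 with the whole *Fbxw4* body in the segment as the enhancer interval. Over squares of 5 by 5 bins the loop values were 3.42 (inverted with centromeric boundary) and 4.87 (outer). Against the median contact at a distance they were 4.32, 1.30 (inverted with telomeric boundary) and 6.74. At a fold of 2, 14 block pairs were higher and 15 lower, against 46 and 33 at 1.5-fold. Insulation at the inverted boundary was -0.27 over windows of 200 kb and -0.61 over 50 kb. The cause of these shifts was not tested. The edges found from the contacts were the same with the absolute deviation and with pairs up to 1 Mb.

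No paired analysis was possible because the maps merge the replicates, and leaving out each replicate in turn could not be run for the same reason. The counting intervals leave out the spread between embryos, and the deeper *Inv1* map and its strain differ from wild-type together with the genotype. At the *Btrc* with *Fgf8* promoter pair, 38 wild-type read pairs leave a difference of the size measured not detectable at this depth.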
